A study of Mus musculus with 8 samples.

Results

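iPS line 1, one of 3 mouse induced pluripotent stem cell lines in the series, was compared with the embryonic stem (ES) cells used as the control. The comparison rests on 4 of the 8 arrays, chosen by their titles: 2 of line 1 and 2 of ES cells. It covers the 34945 of 45101 probe sets that carry a single gene symbol, of which 25733 passed a filter on dim signals and stood for 14004 genes. Both groups were male cells of the C57BL/6 strain, without any named transgene or drug, kept in N2B27 medium with mouse leukaemia inhibitory factor (LIF) and taken between passages 7 and 10. The series title calls the iPS cells integration-free, meaning that no reprogramming vector was left in the genome. The sources used here do not name the source cell type of the iPS lines, the reprogramming factors or whether a line is a single clone. Each group is 1 line, so a difference between iPS and ES cells in general and a difference between these 2 lines cannot be told apart. The titles call the arrays biological replicates, but no label ties them to separate cultures, so the p-values cover only array-to-array spread, part or all of which may be technical.

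ES cells are taken from the inner cell mass of the blastocyst and iPS cells are somatic cells brought back to a like state. Both keep a network of transcription factors around Pou5f1 (Oct4), Sox2 and Nanog, which LIF helps to hold in the naive form in the mouse. Mouse pluripotent cultures are known to vary in early embryo genes, imprinted genes, cytoskeletal genes and signalling feedback genes, and these groups order the account that follows.

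Signals are the linear MAS5 intensities deposited by the authors, in arbitrary units, and changes are differences of log2(signal + 12). Changes given without a unit are on this log2 scale, each ± is a standard error, and a positive value means higher in line 1. That scale makes the change of a dim gene look smaller than it is. A gene was called changed at an adjusted p under 0.05 in limma, with Benjamini-Hochberg adjustment over all 14004 genes. The floor for a dim signal was 37.1, the 40th percentile of all signals. Trimmed mean signals were equal on all 8 arrays, median signals lay between 54.1 and 64.3, and 58% to 61.3% of probe sets exceeded the floor. For beta-actin the 3' control probe set over the 5' one, a gauge of RNA integrity, gave 1.488 and 1.624 in ES cells and 1.5 and 1.566 in line 1, so the groups overlapped. Over all genes the ES arrays correlated with each other at r = 0.981, the line 1 arrays at 0.983, and arrays of the different groups at 0.978 to 0.981, as a description across genes.

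All 8 pluripotency markers (Pou5f1, Nanog, Sox2, Zfp42, Esrrb, Utf1, Tdgf1 and Dppa5a) exceeded the floor in all 4 arrays, and none was called different between line 1 and ES cells in limma. Their differences were all negative, from -0.01 (Sox2) to -0.29 (Utf1). The summed signal of these 8 markers was 101722 to 109371 in ES cells and 95699 to 101768 in line 1. Of 10 fibroblast and feeder cell markers, 6 (among them Col1a1, Col3a1, Dcn and Postn) were at or under the floor in all 4 arrays. The summed signal of the fibroblast markers was 234 to 265 in ES cells and 272 to 285 in line 1.

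Line 1 differed from ES cells in 327 genes, 2.34% of those tested: 170 were higher (1.21%) and 157 lower (1.12%). Most differences were small, since 51 called genes changed by at least 2-fold, 33 upwards and 18 downwards, and 10 by at least 3-fold, 8 upwards and 2 downwards. Before adjustment, 1956 genes had a p under 0.05. In 6220 genes (44.4%) the line 1 arrays did not overlap the ES arrays, with both line 1 arrays above in 3307 (23.6%) and below in 2913 (20.8%). When each array was centred on its median instead, 166 genes were higher and 97 lower, which moved the share of higher genes among the calls from 52% to 63.1%. Each of the 4 arrays bore on the count: without ES replicate 1 it was 109, without ES replicate 2 it was 123, without line 1 replicate 1 it was 141 and without line 1 replicate 2 it was 147. In bulk RNA, more cells of a type and more RNA per cell cannot be told apart.

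**Figure D1:**
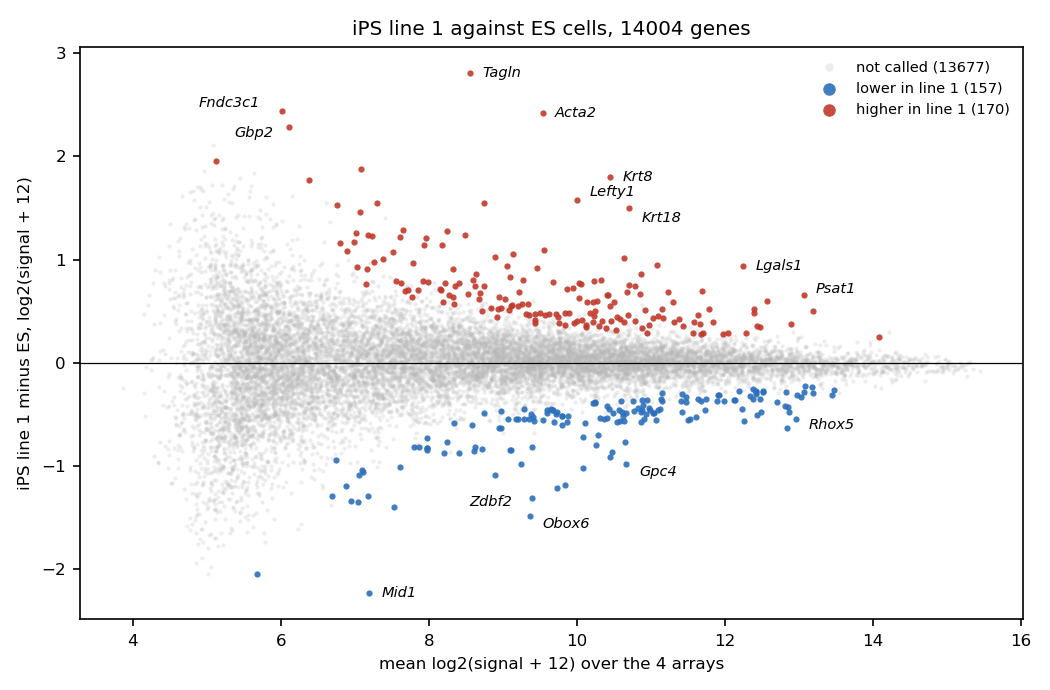
Change of each of 14004 genes in iPS line 1 against ES cells (vertical axis, log2 units) against its mean level over the 4 arrays (horizontal axis, log2(signal + 12)). Red points are the 170 genes called higher, blue points the 157 called lower and grey points the rest; Tagln, Acta2, Krt8 and Lefty1 lie above and Mid1, Obox6 and Zdbf2 below.

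Smooth muscle type actin and its partner genes included the largest increase of line 1, that of Tagln. Tagln encodes transgelin, an actin-bundling protein of smooth muscle that also appears in early mesenchymal cells. Its signal was 116 and 145 in the ES arrays and 935 and 1029 in the line 1 arrays. Line 1 was thus far above ES cells in both arrays, 6.99-fold (log2 2.81 ± 0.19, adjusted p = 8.49e-06). Acta2, smooth muscle alpha-actin, had signals of 332 and 288 in ES cells and 1669.5 and 1745 in line 1 (5.35-fold, log2 2.42 ± 0.095, adjusted p = 6.30e-08). Skeletal alpha-actin, Acta1, had signals of 107 and 127 in ES cells and 287 and 287 in line 1 (log2 1.22 ± 0.17, adjusted p = 0.00218). All 3 calls were kept in every alternative run for them.

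A wider group of 41 measured targets of serum response factor (SRF) and contractile cytoskeleton genes had 8 members that rose and none that fell, against 2.34% of all genes called. Its median change was 0.17, beside 0.01 over all genes, and the line 1 arrays lay above both ES arrays in 21 of the 41, beside 23.6% of all genes. In 5 of the 41 they lay below both. SRF is a transcription factor that, with actin-sensing cofactors, drives genes of the actin cytoskeleton. Besides the 3 genes above, the members that rose were the tropomyosins Tpm1 (0.59 ± 0.083) and Tpm2 (0.48 ± 0.091), the actin-binding proteins caldesmon Cald1 (0.62 ± 0.098) and calponin 2 Cnn2 (0.45 ± 0.094), and the immediate early factor Egr1 (0.43 ± 0.086). Tpm1 signals were 1143 and 1203 in ES cells and 1876 and 1676 in line 1, without overlap. Its other probe sets differed by 0.37 and 0.04 and were not called. The Tpm1 call was lost when all probe sets of a gene were averaged and when the variance model had no intensity trend. Srf itself had a difference of 0.12 ± 0.098 and the cytoplasmic actins Actb and Actg1 had -0.08 ± 0.066 and 0.06 ± 0.059, none of them called. With 1 array left out the list had 4 to 6 calls. Tagln, Acta2 and Acta1 had the largest changes among the called members.

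Of 6 defining markers of smooth muscle, Lmod1 and Myocd, the cofactor that specifies smooth muscle, were at or under the floor in all 4 arrays. Myh11, smooth muscle myosin, had signals of 8.23 and 6.12 in ES cells and 7.48 and 60.9 in line 1, so it exceeded the floor in a single array. Calponin 1, Cnn1, was at 8.47 and 21.8 in ES cells and 82.4 and 82.0 in line 1, at least 2.22-fold higher, with an adjusted p of 0.0586 that missed the threshold. Des had signals of 165 and 224 in ES cells and 195 and 186 in line 1 (-0.01). Smtn had signals of 115 and 107 in ES cells and 83.8 and 40.9 in line 1 (-0.78), and neither was called. The summed signal of the 6 markers was 305 to 364 in ES cells and 382 to 386 in line 1, and their part in the Tagln and Acta2 result was not tested.

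The promoters of 3 called actin cytoskeleton genes are shown because SRF binds a short element, the CArG box, and 8 of the 41 list genes rose. They are the 250 bases before the start site, from RefSeq on GRCm38.p6, on the strand of the gene, with strict CArG boxes in capitals.
Acta2, chr19:34255374-34255623, minus strand: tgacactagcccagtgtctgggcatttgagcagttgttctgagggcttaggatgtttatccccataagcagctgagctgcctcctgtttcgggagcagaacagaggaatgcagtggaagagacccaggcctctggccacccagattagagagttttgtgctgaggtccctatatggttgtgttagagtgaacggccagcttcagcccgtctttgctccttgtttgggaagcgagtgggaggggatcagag
Acta1, chr8:123894776-123895025, minus strand: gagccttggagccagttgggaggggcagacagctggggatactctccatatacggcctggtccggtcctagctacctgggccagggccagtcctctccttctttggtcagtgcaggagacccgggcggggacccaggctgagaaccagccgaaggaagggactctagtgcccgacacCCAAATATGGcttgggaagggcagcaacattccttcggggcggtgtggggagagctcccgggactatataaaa
Cnn2, chr10:79988350-79988599, plus strand: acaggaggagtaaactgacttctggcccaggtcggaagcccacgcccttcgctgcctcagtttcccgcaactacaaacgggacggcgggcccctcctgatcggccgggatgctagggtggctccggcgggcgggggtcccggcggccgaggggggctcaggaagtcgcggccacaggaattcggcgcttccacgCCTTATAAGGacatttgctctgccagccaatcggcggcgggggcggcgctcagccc
The box was searched in its strict form (CC, 6 bases of A or T, GG), which reads as a box on both strands. Boxes with a substituted base, in Acta2 or elsewhere, would be missed and are not in capitals, and no other motif was searched. Acta1 held 1 box, whose first base lay at -73 from the start, and Cnn2 held 1 at -56. No strict match lay in the Acta2 window. Such a box was found in 482 of 32851 windows of this length (1.47%), in windows of 145 of 11275 tested genes (1.29%), and in those of 10 of the 35 SRF list genes that had a window. Among the 6 called list genes with a window, Acta1 and Cnn2 held one, and the called genes Tagln and Egr1 had no window to search. These matches are a description and show no binding.

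Keratins of simple epithelia formed the next group of increases. Krt8 and Krt18 pair into the intermediate filaments of early embryonic epithelia. Krt8 signals were 715 and 759 in ES cells and 2579 and 2593 in line 1 (3.47-fold, log2 1.79 ± 0.077, adjusted p = 9.46e-08). Krt18 signals were 995 and 971 in ES cells and 2841 and 2769 in line 1 (2.83-fold, log2 1.502 ± 0.070, adjusted p = 1.66e-07). In both genes the replicate arrays lay close together and the groups were far apart, and both calls were kept in every alternative. Krt19, a further keratin of simple epithelia, was dimmer, at 80.8 and 42.5 in ES cells and 271 and 228 in line 1 (log2 1.87 ± 0.26, adjusted p = 0.002), and its call was lost when the variance model had no intensity trend (adjusted p = 0.0985).

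Of 33 measured keratin, junction and epithelial identity genes, 9 rose and 1 fell (30.3%, beside 2.34% of all genes called). Their median change was 0.21, beside 0.01 over all genes. The list had 8 calls whichever array was left out. Esrp1, a splicing factor of epithelial cells, had signals of 510.2 and 494 in ES cells and 1118 and 1055 in line 1 (log2 1.10 ± 0.090, adjusted p = 4.12e-05). The desmosome genes Pkp2 and Dsp, for plakophilin 2 and desmoplakin, rose by 0.75 and 0.93. The tight junction genes Cldn6 and Cldn7 rose by 0.78 and 0.71, and the adhesion gene Epcam by 0.52. Spint1, a protease inhibitor of epithelia, fell by 0.37. Krt8, Krt18 and Krt19 are also counted in a list of 21 trophoblast genes, where 4 rose and 1 fell (23.8%, beside 2.34% of all genes called). The others were the transcription factors Tfap2c (0.51 ± 0.11), which rose, and Ets2 (-0.49 ± 0.098), which fell. That list had 3 calls when an array was left out. The summed signal of 6 trophoblast markers (Krt7 among them, but none of the 3 keratins above) was 359 to 454 in ES cells and 519 to 608 in line 1. None of those 6 was called, Elf5 was at or under the floor in all 4 arrays, and their part in the keratin result was not tested.

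**Figure D2:**
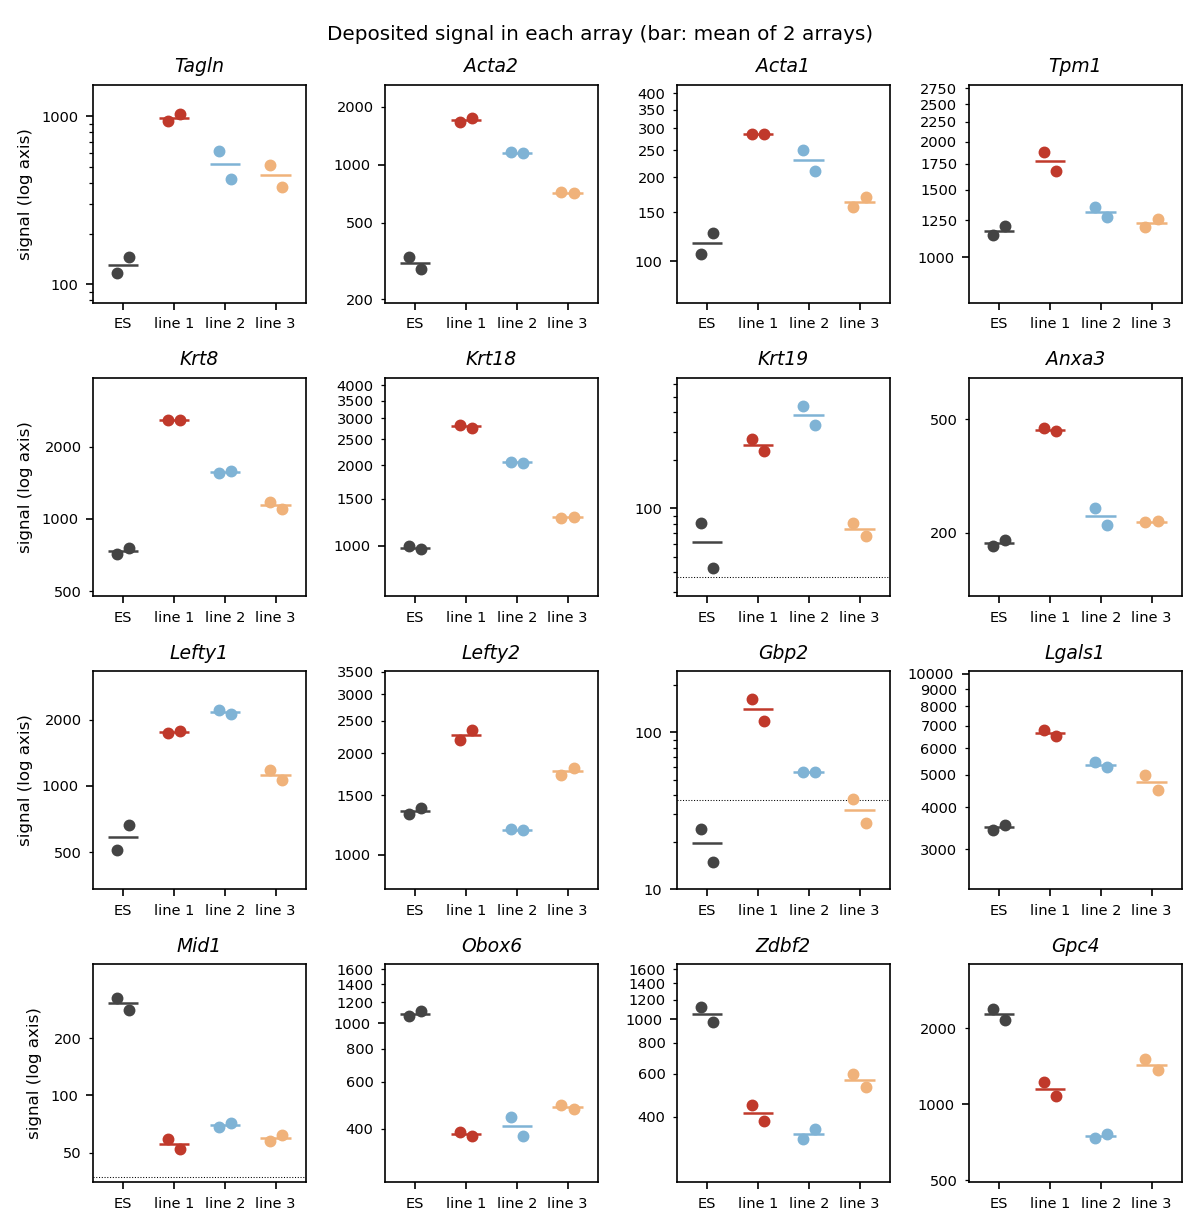
Deposited signal (vertical axes, log scale, arbitrary units) of 16 genes in each array of ES cells and of iPS lines 1, 2 and 3; each point is 1 array, each bar the mean of 2 arrays and the dotted line the floor of 37.1 where it falls in range. In all 16 genes both line 1 arrays lie on the same side of both ES arrays.

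Genes of Nodal signalling moved in opposite directions. Nodal is a growth factor of the early embryo, and its inhibitors Lefty1 and Lefty2 are known targets of the pathway. Lefty1 signals were 510.3 and 662 in ES cells and 1739.5 and 1773 in line 1 (2.98-fold, log2 1.58 ± 0.11, adjusted p = 1.06e-05). Lefty2 signals were 1320.2 and 1375 in ES cells and 2197 and 2347 in line 1 (log2 0.75 ± 0.075, adjusted p = 1.85e-04). Both inhibitors were higher in each line 1 array and kept their calls in every alternative. The ligand gene Nodal had signals of 3041 and 3097 in ES cells and 2301 and 2431 in line 1 (log2 -0.37 ± 0.075, adjusted p = 0.0205), and this call was lost under median centring and whenever an array was left out. Of 21 pathway genes 4 rose and 1 fell (23.8%, beside 2.34% of all genes called). The other risers were the SMAD corepressors Skil (0.36 ± 0.064) and Ski (0.42 ± 0.096). With 1 array left out 2 to 3 of the list's genes were called.

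Among 18 Wnt targets 2 rose: Lef1, a nuclear partner of beta-catenin, with signals of 231 and 215 in ES cells and 493 and 596 in line 1 (log2 1.24 ± 0.16, adjusted p = 0.00126), and the transcription factor Sp5 (0.71 ± 0.13). With 1 array left out the Wnt list had 1 call. Axin2, a general readout of Wnt activity, had a difference of 0.45 ± 0.18 and was not called. Among 34 genes of FGF-ERK feedback and the immediate early response 3 rose: Jun (0.48 ± 0.085), Klf6 (0.48 ± 0.092) and Egr1. None of these 3 kept its call when an array was left out, whichever array it was. Among 22 LIF-STAT3 targets Sp5 and the feedback inhibitor Socs3 (0.36 ± 0.085) rose and the homeobox gene Rhox5 fell, and 1 to 2 genes were called when an array was left out. The share called was 11.1% of the Wnt list, 8.82% of the FGF-ERK list and 13.6% of the LIF-STAT3 list, beside 2.34% of all genes. No gene of 21 BMP and Id genes was called in limma, where 5 had an unadjusted p under 0.05.

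No factor of the pluripotency core was called. Signals of Pou5f1 were 12035 and 11786 in ES cells and 11571 and 10681 in line 1, a difference of -0.10 ± 0.062. Those of Nanog were 15090.1 and 17286 in ES cells and 15098 and 13616 in line 1 (-0.17 ± 0.074), and the groups overlapped. Sox2 had a difference of -0.01 ± 0.059, whose sign depended on the scaling of the arrays, and Klf4, Myc and Lin28a had differences of 0.17 ± 0.057, -0.26 ± 0.17 and 0.21 ± 0.081. None of these 6 factors used for reprogramming passed the adjusted threshold in limma, and 3 had an unadjusted p under 0.05.

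Around that core, single naive and formative genes moved. Of 35 naive network genes 3 rose and 5 fell, beside 2.34% of all genes called, with a median of -0.13. With 1 array left out the list had 3 to 6 calls. The risers were Lefty1, Lefty2 and Dppa3 (Stella), a maternal factor that protects DNA methylation in the early embryo. Dppa3 signals were 1513 and 1586 in ES cells and 3284 and 2752 in line 1 (log2 0.95 ± 0.11, adjusted p = 5.47e-04). Those that fell were Nr0b1 (-0.47 ± 0.081), Tbx3 (-0.37 ± 0.064), Fbxo15 (-0.31 ± 0.056), Nodal and Dppa2 (-0.26 ± 0.060), all of them moderate changes in abundant transcripts. Under median centring 2 of the 5 kept the call. Of 23 formative and primed genes 5 rose and none fell (21.7%, beside 2.34% of all genes called): Krt18, Lef1, Cldn6, Sox11 (0.36 ± 0.082) and Dnmt3b. Without an intensity trend this list had 1 call. The de novo methyltransferase Dnmt3b had signals of 6536 and 6833 in ES cells and 8844 and 8537 in line 1 (log2 0.38 ± 0.073, adjusted p = 0.0169). Dnmt3b was the only call among 26 DNA methylation and Polycomb genes (3.85%, beside 2.34% of all genes called). Its call was lost whichever array was left out. With 1 array left out the formative list had 2 calls.

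Of 17 measured genes of the preimplantation embryo and of 2-cell-like cells, a rare state within ES cultures, 4 fell and 1 rose. The share called was 29.4%, beside 2.34% of all genes. The line 1 arrays lay below both ES arrays in 11 of the 17, where 20.8% of all genes did so, and the median change was -0.68. Obox6, an oocyte-specific homeobox gene, had signals of 1061 and 1112 in ES cells and 388 and 376 in line 1 (2.79-fold lower, log2 -1.48 ± 0.11, adjusted p = 1.81e-05). Pramel7, a preimplantation gene tied to low DNA methylation, had signals of 176 and 191 in ES cells and 59.4 and 71.9 in line 1 (log2 -1.34 ± 0.28, adjusted p = 0.0251). The Obox6 call was kept in every alternative, and that of Pramel7 was lost whenever an array was left out. Tbx3 and Calcoco2 (-0.35 ± 0.074) also fell, and Dppa3 rose. The list had 2 to 3 calls when an array was left out. Pramel6, Arg2 and Zfp352, with differences of -0.88, -1.17 and -0.68, were not called.

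Of 26 measured germline genes, 5 fell and 2 rose (26.9%, beside 2.34% of all genes called), with a median of -0.25. Fewer calls were left when 1 array was left out, and none without an intensity trend. Dazl, an RNA-binding protein of germ cells, had signals of 863 and 907 in ES cells and 476 and 518 in line 1 (log2 -0.82 ± 0.10, adjusted p = 9.52e-04). Rhox5, an X-linked homeobox gene of the reproductive tract, had signals of 9365 and 9771 in ES cells and 6548 and 6599 in line 1 (log2 -0.54 ± 0.058, adjusted p = 2.84e-04). Tex19.1, a retrotransposon silencing factor, fell by 0.54, Gtsf1, a piRNA pathway gene, by 0.58, and the meiotic gene Hormad1 by 0.84. The sex determination factor Dmrt1 rose, with signals of 1303 and 1255 in ES cells and 2092 and 2050.3 in line 1 (log2 0.69 ± 0.072, adjusted p = 2.62e-04), as did the meiosis gate gene Stra8 (0.58 ± 0.096).

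Imprinted genes are read from a single parental copy. In the Dlk1-Dio3 region the noncoding RNAs, which are often silenced in mouse iPS cells, were measured in line 1 above the level of ES cells in both arrays. Meg3 signals were 3283 and 3075 in ES cells and 4409 and 3968 in line 1 (log2 0.40 ± 0.083, adjusted p = 0.026). Those of Rian were 1934 and 1785 in ES cells and 2496 and 2617 in line 1 (log2 0.46 ± 0.081, adjusted p = 0.00986), and Mirg had 300.1 and 330.4 in ES cells and 428 and 414 in line 1 (log2 0.41 ± 0.16, adjusted p = 0.256). The first 2 were called. Of the 10 other probe sets of Meg3, 8 had the same sign. Both calls were lost when all probe sets of a gene were averaged, and at most 1 was left when an array was left out.

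Outside that region 6 of 35 imprinted genes rose and 3 fell (25.7%, beside 2.34% of all genes called). Fewer of them were called when 1 array was left out. Zdbf2, a paternally expressed gene, had signals of 1115 and 975 in ES cells and 449 and 384 in line 1 (2.47-fold lower, log2 -1.30 ± 0.12, adjusted p = 1.26e-04). Sfmbt2, a Polycomb-type gene needed in the placenta, had signals of 975 and 942 in ES cells and 1673 and 1691 in line 1 (log2 0.80 ± 0.072, adjusted p = 8.97e-05). Both calls were kept in every alternative. The growth genes Igf2, Grb10 and Phlda2 rose by 0.78, 0.52 and 0.59, and Gnas and Peg3 by 0.46 and 0.37. Mcts2 and Cd81 fell by 0.53 and 0.27.

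Genes that respond to low oxygen and those of glycolysis had 7 risers and no faller among 29, beside 2.34% of all genes called. With 1 array left out the count was 4 to 6, and without an intensity trend it was 2. Ndrg1, a stress-responsive gene, had signals of 399 and 363 in ES cells and 809 and 795 in line 1 (log2 1.05 ± 0.090, adjusted p = 5.83e-05). Ankrd37, a direct target of hypoxia-inducible factor, had signals of 178 and 186 in ES cells and 416 and 418 in line 1 (log2 1.14 ± 0.13, adjusted p = 3.50e-04). The mitophagy receptor Bnip3 rose by 0.69, the glucose transporter Slc2a1 by 0.50, the oxygen sensor Egln3 by 0.61, the aldolase Aldoc by 0.47 and the pyruvate dehydrogenase kinase Pdk1 by 0.40. The glycolytic enzymes Ldha, Aldoa and Pkm had differences of 0.05, -0.05 and 0.04 and were not called. The median of the list was 0.15 in line 1, 1.01 in line 2 and -0.17 in line 3, each against the same ES arrays.

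The integrated stress response, in which the factor ATF4 raises amino acid synthesis genes, had 7 members that rose and 1 that fell among 34, beside 2.34% of all genes called. The list had 4 to 6 calls when 1 array was left out and 2 without an intensity trend. Psat1, an enzyme of serine synthesis, had signals of 6488 and 7137 in ES cells and 11090.0 and 10339.9 in line 1 (log2 0.65 ± 0.062, adjusted p = 1.26e-04). Phgdh, the first enzyme of that pathway, rose by 0.48. Stc2, a secreted glycoprotein, had signals of 70.9 and 91.7 in ES cells and 285 and 234 in line 1 (log2 1.54 ± 0.20, adjusted p = 0.00138), while its other probe sets differed by 0.50 and 0.17 and were not called. Nupr1 (0.79 ± 0.076), Aldh18a1 (0.43 ± 0.071), Mthfd2 (0.42 ± 0.071) and Ddit4 (0.39 ± 0.074) also rose, and Cth, for cystathionine lyase, fell by 0.35.

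Of 27 targets of the p53 tumour suppressor 6 fell and none rose (22.2%, beside 2.34% of all genes called), and the median was -0.31. In 20 of the 27 both line 1 arrays lay below both ES arrays, beside 20.8% of all genes. Trp53inp1 signals were 8863 and 8808 in ES cells and 6003 and 6669 in line 1 (log2 -0.48 ± 0.069, adjusted p = 0.00229), and those of Mdm2, which degrades p53, were 2137 and 2060.4 in ES cells and 1481 and 1619.8 in line 1 (log2 -0.43 ± 0.077, adjusted p = 0.00952). The second probe set of Trp53inp1, far dimmer, differed by 0.06, and the other 2 of Mdm2 by -0.35 and 0.73, none of them called. Ei24, Ccng1, Ckap2 and Pmaip1 fell by 0.36, 0.32, 0.35 and 0.37. The inhibitor Cdkn1a (p21), a main effector of p53, had a difference of 0.04 ± 0.11. Without an intensity trend none of the 27 was called in limma. Under median centring 3 of the 6 calls were left, and 2 to 3 when an array was left out.

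No gene was called in limma among 35 oxidative phosphorylation subunits (median 0.01, 2 at an unadjusted p under 0.05) or among 20 sterol synthesis genes (median -0.03, 2 at an unadjusted p under 0.05). Among 36 DNA replication genes Gins2, a subunit of the replicative helicase, was the sole call (-0.36 ± 0.083), and it was lost under median centring. That share, 2.78% of the list, was near the 2.34% of all genes called.

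Of 18 neural progenitor and neuron genes 3 rose, beside 1.21% of all genes: the intermediate filament gene Ina (0.83 ± 0.13), the tubulin Tubb3 (0.86 ± 0.18) and the microtubule protein Map2 (0.76 ± 0.18). The list had 1 to 2 calls when an array was left out. Map2 lost its call whichever array was left out, Tubb3 without ES replicate 1 or either line 1 array, and Ina without ES replicate 1. Tubb3 signals were 239.6 and 333 in ES cells and 588 and 464 in line 1. The summed signal of 6 neural markers was 433 to 517 in ES cells and 770 to 839 in line 1, with Tubb3 as its largest part. Of the others, Sox1 was lower (-0.62) and Pax6 (0.84) and Neurog1 (1.72) were higher in line 1, none of them called. Dcx and Fabp7 were at or under the floor in all 4 arrays. The part of these 6 markers in the rise of Ina and Map2 was not tested. No gene was called among 21 fibroblast genes (1 at an unadjusted p under 0.05) or 16 mesendoderm genes (0 at an unadjusted p under 0.05) in limma. Among 25 primitive endoderm genes the collagen chaperone Serpinh1 rose (0.55 ± 0.071), and the basement membrane gene Nid1 (-0.47 ± 0.084), Apom (-1.35 ± 0.31) and Sparc (-0.26 ± 0.059) fell, beside 2.34% of all genes called. That list had 1 to 2 calls when an array was left out. Apom and Sparc lost their calls whichever array was left out, and Nid1 without ES replicate 2 or line 1 replicate 1. Laptm5 and Cd68, lysosomal genes of blood cells, fell by 0.45 and 0.61, but Ptprc, the pan-leukocyte marker, was under the floor in all 4 arrays, and Laptm5 had the opposite sign, 0.37, when probe sets that can hybridise to several transcripts were left out. At most 1 gene of that list was called when an array was left out.

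**Figure D3:**
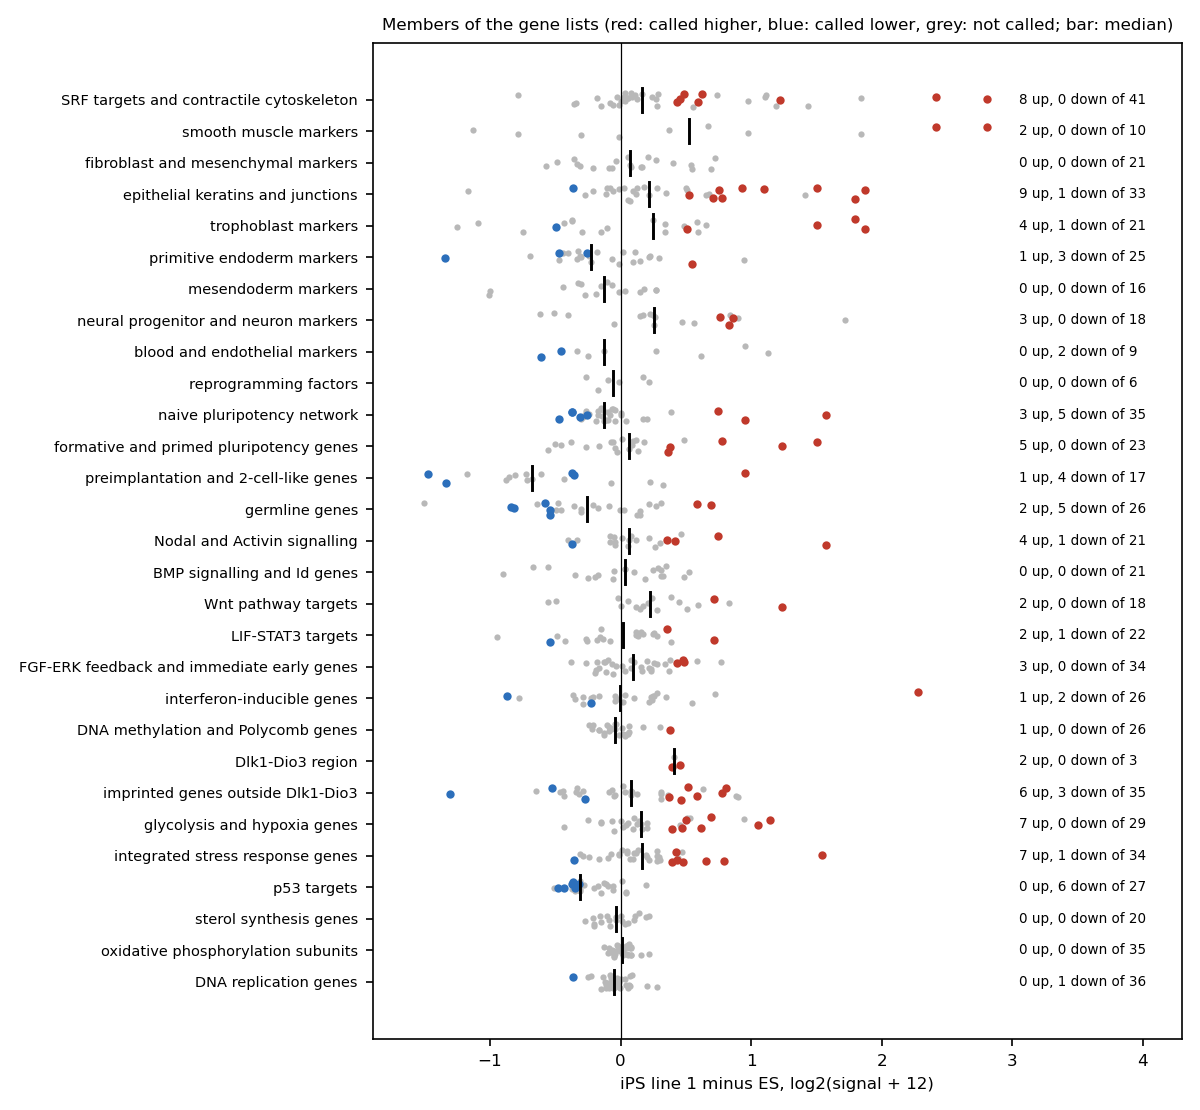
Change in iPS line 1 against ES cells (horizontal axis, log2 units) of every tested member of 29 gene lists, 1 row each; red points are called higher, blue called lower, grey not called, and the black bar is the median. Preimplantation genes and p53 targets have medians of -0.68 and -0.31, and the contractile and epithelial lists of 0.17 and 0.21.

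Several of the largest changes belonged to none of these groups. Gbp2, an interferon-induced GTPase, was at 24.3 and 14.99 in ES cells, under the floor, and at 165 and 119 in line 1, at least 3.77-fold higher (log2 2.28 ± 0.37, adjusted p = 0.00594). Of 26 interferon-inducible genes measured, Gbp2 alone rose, and Xaf1 (-0.87 ± 0.16) and Ifitm3 (-0.23 ± 0.054) fell (11.5%, beside 2.34% of all genes called). At most 1 gene of that list was called when an array was left out. Its median was -0.0041 and changed sign under quantile normalization (0.0041). Fndc3c1, an X-linked gene, was at 7.34 and 27.7 in ES cells and 127 and 149.6 in line 1, at least 3.71-fold higher (log2 2.44 ± 0.40, adjusted p = 0.00675). Cyp1b1, a steroid and xenobiotic hydroxylase, was at 35.5 and 31.1 in ES cells and 121 and 168 in line 1, at least 3.84-fold higher, though its second probe set was dim in both groups and differed by -0.07. Cmtm8, a tetraspan membrane protein gene, was at 6.85 and 4.74 in ES cells and 68.6 and 47.0 in line 1, at least 1.53-fold higher. In these 4 genes the ES arrays give only an upper bound, and all but Gbp2 lost the call in at least 3 of the 4 fits that left out an array.

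Mt4, a metallothionein of squamous epithelia, had signals of 227 and 254 in ES cells and 719 and 727 in line 1 (log2 1.54 ± 0.12, adjusted p = 2.58e-05). Anxa3, a calcium-dependent phospholipid-binding protein, had signals of 179.6 and 188 in ES cells and 467 and 454 in line 1 (log2 1.27 ± 0.14, adjusted p = 3.93e-04). Lgals1, for the secreted lectin galectin-1, had signals of 3428 and 3547 in ES cells and 6795 and 6541 in line 1 (log2 0.93 ± 0.065, adjusted p = 1.06e-05). All 3 calls were kept in every alternative, as was that of Hs6st2, an X-linked heparan sulfate sulfotransferase (1.46 ± 0.20). The carbonic anhydrase Car4 (1.52 ± 0.24) lost its call without line 1 replicate 2 (adjusted p = 0.0592).

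The largest decrease was that of Mid1, an X-linked ubiquitin ligase that binds microtubules. Its signal was 327 and 283 in ES cells and 58.8 and 52.2 in line 1 (4.69-fold lower, log2 -2.23 ± 0.24, adjusted p = 2.96e-04). A second Mid1 probe set was under the floor on average in both groups and differed by -0.05, and the call was lost when the probe sets were averaged (adjusted p = 0.123). Gpc4, an X-linked cell surface proteoglycan that modulates Wnt and FGF signals, had signals of 2398 and 2151 in ES cells and 1222 and 1078 in line 1 (log2 -0.98 ± 0.093, adjusted p = 1.26e-04). The serine protease Htra1 fell by 1.02, the chromatin protein Hmga2 by 0.98 and Smtnl1, a regulator of smooth muscle contraction, by 1.22, the last against the direction of the contractile genes. Other large decreases were those of Pknox2 (-1.29 ± 0.22), Mypn (-1.29 ± 0.27), Tunar (-1.19 ± 0.26), Aldh1l1 (-1.09 ± 0.26), A2m (-1.08 ± 0.18) and Uggt2 (-1.06 ± 0.22). Each of these 6 lost its call in at least 2 fits that left out an array. Of the 15 largest increases 8 kept the call in every alternative, and of the 15 largest decreases 3 did: Obox6, Zdbf2 and Gpc4.

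The X chromosome held a larger share of calls than any autosome. Of its 458 tested genes 15 were higher and 10 lower, 5.46%, while the autosomes had 1.8% to 3.14%. The median change on X was 0.04, and this difference in share was not tested. The calls included Mid1, Gpc4, Rhox5, Nr0b1, Hs6st2, Fndc3c1 and Rlim (0.39 ± 0.076), the ubiquitin ligase that starts X inactivation. The 4 other Rlim probe sets differed by 0.06 to 0.36 and were not called. The Rlim call was lost when probe sets were averaged and without an intensity trend. The neighbours Hmgn5, Sh3bgrl and Rps6ka6 on X rose by 0.40, 0.66 and 0.28, the only run of 3 adjacent tested genes called the same way; these were named after their values were seen. Among Y-linked genes Kdm5d, a histone demethylase, had signals of 111 and 117 in ES cells and 231 and 279.6 in line 1 (log2 1.08 ± 0.15, adjusted p = 0.00229), a call kept in every alternative. Eif2s3y had signals of 888 and 966 in ES cells and 886 and 958 in line 1, which overlapped. Uty had signals of 279 and 341 in ES cells and 427 and 442 in line 1, without overlap, and was not called. Sry was under the floor in all 4 arrays, and Zfy2 exceeded it in a single ES array.

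**Figure D4:**
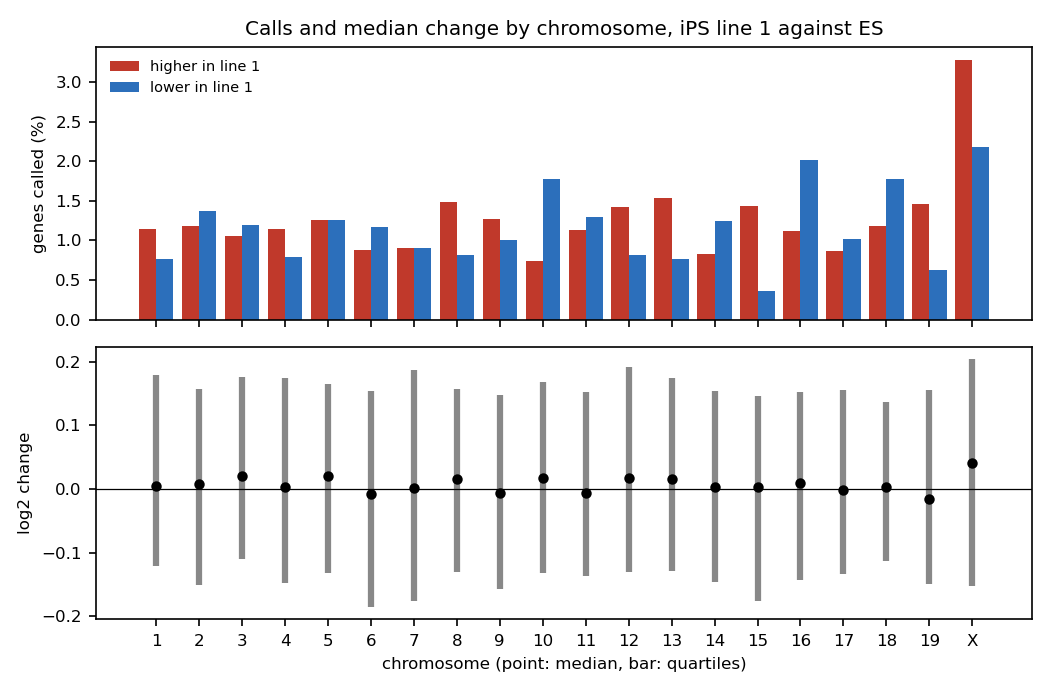
Upper panel: percent of tested genes called higher (red) or lower (blue) in iPS line 1 against ES cells, by chromosome. Lower panel: median (point) and quartiles (bar) of the log2 change; the X chromosome has 3.28% called higher and 2.18% lower, and the median of each chromosome shown lies within 0.05 of 0.

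Line 1 was then set against the other iPS lines, also male C57BL/6 cells in the same medium. Against the mean of lines 2 and 3 there were 420 calls (3%), 210 higher (1.5%) and 210 lower (1.5%). Of these, 19 differed by at least 2-fold. Without line 1 replicate 1 the count was 67, without line 1 replicate 2 it was 80, and without either array of line 3 it was 211 or 241. Against line 3 alone 198 genes (1.41%) were called. Line 2 stood apart from the other lines, with 26.7% of genes called against ES cells, beside 4.16% for line 3.

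Tagln, Acta2, Tpm1, Krt8 and Krt18 were called higher in line 1 than the mean of the other iPS lines. Tagln signals were 617 and 424 in line 2 and 512 and 380.3 in line 3, all below line 1 (log2 1.03 ± 0.16, adjusted p = 0.00629 against their mean). Acta2 signals were 1173 and 1146 in line 2 and 719 and 710.1 in line 3 (log2 0.90 ± 0.082, adjusted p = 4.78e-04). Krt8 signals were 1561 and 1587 in line 2 and 1179.5 and 1103 in line 3 (log2 0.94 ± 0.067, adjusted p = 7.45e-05), and Krt18 differed likewise (log2 0.79 ± 0.061, adjusted p = 9.41e-05). Line 1 was the highest of the 3 iPS lines in these 4 genes, and against ES cells the 3 lines had differences in Acta2 of 2.42, 1.87 and 1.18. Anxa3 signals were 244 and 212 in line 2 and 218 and 219.9 in line 3, so both line 1 arrays stood above all others (log2 1.01 ± 0.12, adjusted p = 0.00204). Tpm1 was similar, with 1349 and 1277 in line 2 and 1202 and 1257 in line 3 (log2 0.48 ± 0.072, adjusted p = 0.0051). This Tpm1 call too was lost when probe sets were averaged. Acta1, with 251 and 211 in line 2 and 157 and 171 in line 3, was not called (log2 0.54 ± 0.15, adjusted p = 0.0793). Krt19 was not called either (log2 0.50 ± 0.22, adjusted p = 0.267), and its signals of 438 and 334 in line 2 lay above those of line 1. Gbp2 was at 55.6 and 56.2 in line 2 and 37.6 and 26.3 in line 3 (log2 1.48 ± 0.32, adjusted p = 0.029).

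Some genes differed from the other iPS lines with no call against ES cells. Tfpi, an inhibitor of blood coagulation made by primitive endoderm, had signals of 3059.9 and 2398 in ES cells and 3386 and 2928 in line 1, but 1587 and 1774 in line 2 and 1659 and 1882 in line 3 (log2 0.87 ± 0.099, adjusted p = 0.00163). Apex2, an X-linked DNA repair nuclease, had 229.8 and 272 in line 1, 115 and 71.4 in line 2 and 168 and 114 in line 3 (log2 1.07 ± 0.21, adjusted p = 0.0188). Tnnc2, a troponin of fast muscle, had 173 and 171 in line 1 and at most 117 in every other array (log2 0.90 ± 0.20, adjusted p = 0.0373). With clone-style names passed over, the 8 largest deficits were in genes that were dim in line 1, at 81.1 or less in each of its arrays. Cbfa2t3, a transcriptional corepressor, had signals of 15.7 and 14.9 in line 1, below the floor, 80.6 and 91.7 in line 2 and 98.7 and 63.8 in line 3 (log2 -1.80 ± 0.33, adjusted p = 0.0146). Scrt1, a neural repressor, had 12.4 and 14.9 in line 1, 70.6 and 52.4 in line 2 and 66.8 and 92.1 in line 3 (log2 -1.67 ± 0.32, adjusted p = 0.0172). With line 1 below the floor, these log2 values depend on the added constant and are no measure of fold. Selplg (-2.14), Mertk (-1.99), Kif26a (-1.67), Tpbgl (-1.64), Ascl2 (-1.12) and Galnt16 (-1.09) were the others, and each of the 8 lost its call without line 1 replicate 1.

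In some genes lines 2 and 3 lay on opposite sides of line 1. Ndrg1 signals were 4058 and 4249 in line 2 and 319 and 324 in line 3, with line 1 between them (log2 -0.53 ± 0.078, adjusted p = 0.00435 against the mean, but log2 1.29, adjusted p = 1.71e-05 against line 3 alone). Bnip3 had 13391 and 12054 in line 2 and 1244 and 1259.6 in line 3 (log2 -0.39 ± 0.060, adjusted p = 0.00585 and log2 1.28, adjusted p = 3.18e-06). Jun had 2537 and 2514 in line 2 and 486 and 494 in line 3 (log2 -0.47 ± 0.073, adjusted p = 0.00629 and log2 0.70, adjusted p = 0.00108). In all 3 genes line 1 was below line 2 and above line 3. Of the 27 p53 targets 6 were called lower in line 1 than the mean of the other lines and 1 higher, beside 1.5% of all genes each way. Mdm2 was at 2136 and 2329 in line 2 and 1786 and 1746 in line 3 (log2 -0.36 ± 0.066, adjusted p = 0.0153 against the mean). It was not called against line 3 alone (log2 -0.19, adjusted p = 0.289). Rhox5 was lower in line 1 than in each array of the other lines, with 8239 and 7729 in line 2 and 9903 and 9460.2 in line 3 (log2 -0.42 ± 0.050, adjusted p = 0.00202).

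**Figure D5:**
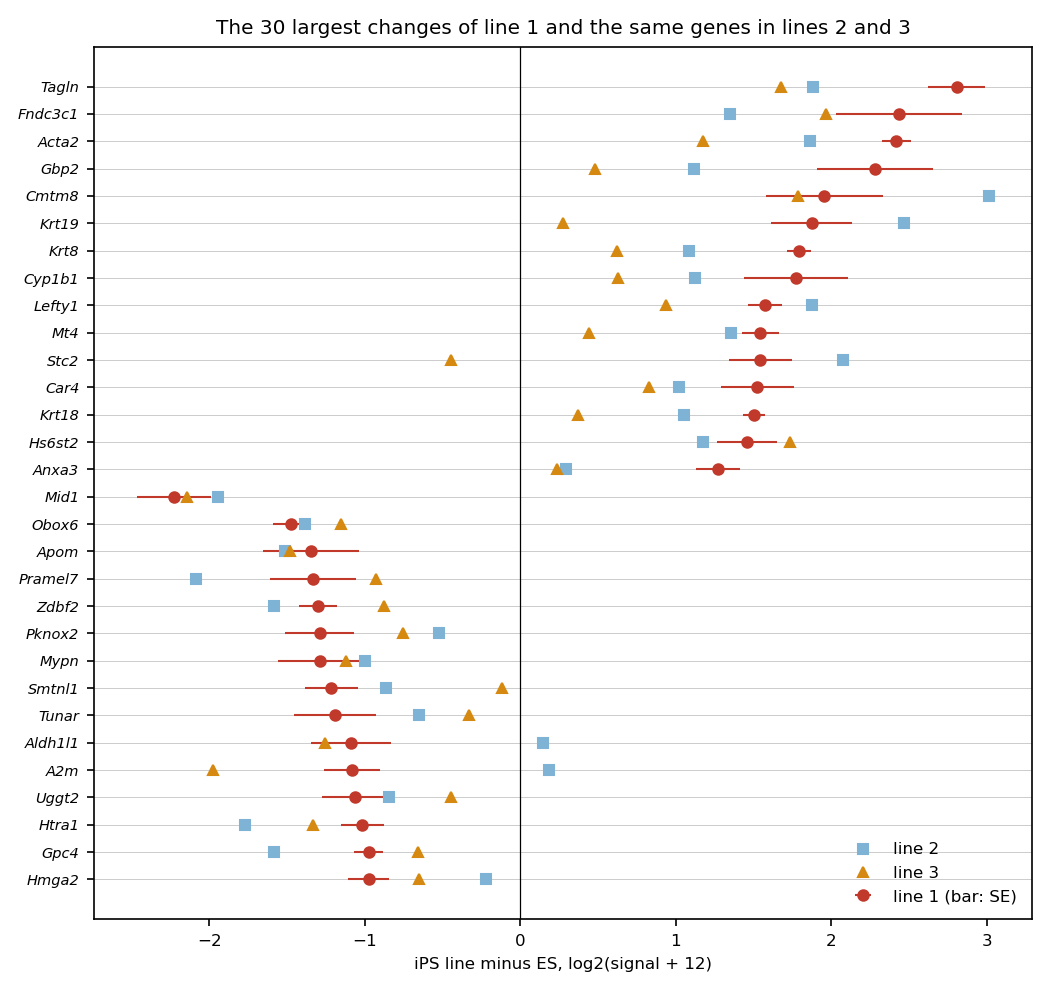
Log2 difference from ES cells (horizontal axis) of the 15 largest increases and 15 largest decreases of iPS line 1, with line 1 as red circles with standard errors, line 2 as light blue squares and line 3 as orange triangles. The genes were chosen by their change in line 1 and all lines share the same ES arrays; Stc2 has values of 1.54, 2.07 and -0.45 in lines 1, 2 and 3, and Anxa3 of 1.27, 0.29 and 0.24.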

How the data were processed

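The deposited values were linear intensity signals per probe set made by the authors (MAS5, according to the submitters' processing notes). Its scaling target was not stated in the sources used here. They were used as deposited. Probe sets were named from the platform annotation: 34945 had 1 symbol, 932 several and 9160 none, and 34741 had an entry in a RefSeq gene table (GRCm38.p6). Values were log2(signal + 12), a probe set had to exceed 37.1 in at least 2 arrays, and the one with the highest mean stood for its gene. The test was limma 3.58.1 (R 4.3.3), with group means over all 8 arrays (4 residual degrees of freedom, 12.4 after moderation) and an intensity trend, two-sided. Errors are standard errors with 2 arrays per group. The code was tested on simulated data. "At least" folds divide the geometric mean of the brighter arrays by the floor. Named genes were the 15 largest called changes each way, the 6 smallest adjusted p, 4 per list, all reprogramming, Dlk1-Dio3 and Y-linked genes, and 8 each way against lines 2 and 3, passing over clone names. Other called list members were named after their values were seen. The members and lists were chosen with earlier results of these data known. The array number limits precision.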

Additional observations from a re-analysis of the deposited data

Results flagged for a closer look

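Among the 141 named genes, 42 differed between line 1 and the mean of iPS lines 2 and 3 at an adjusted p under 0.05. This was a test of the difference itself in the same limma fit, in which 3% of all genes were called. Some of the 42 were named because this same contrast called them, so their place here was fixed in advance. These were Gbp2, Apex2, Tagln, Anxa3, Krt8, Tnnc2, Acta2, Tfpi, Selplg, Mertk, Cbfa2t3, Kif26a, Scrt1, Tpbgl, Ascl2 and Galnt16. The count of 42 is therefore no measure of how often named genes differ. In the actin, keratin and related group the differences were Tagln 1.03, Acta2 0.90, Tpm1 0.48, Krt8 0.94, Krt18 0.79, Anxa3 1.01, Lgals1 0.40, Tnnc2 0.90 and, in the opposite direction, Smtnl1 -0.73. Among stress and response genes they were Gbp2 1.48, Xaf1 0.57, Mt4 0.65, Stc2 0.73, Socs3 0.49, Socs2 0.21, Ndrg1 -0.53, Bnip3 -0.39, Nupr1 -0.29, Jun -0.47, Egr1 -0.71, Fos -0.28, Ei24 -0.30 and Mdm2 -0.36. Among developmental genes they were Lefty2 0.64, Nr0b1 0.43, Bmp4 0.53, Tfpi 0.87, Dnmt3l 0.27, Rhox5 -0.42, Dazl -0.46, Ascl2 -1.12 and Hmga2 -0.54. The others were Apex2 1.07, Htra1 0.54, Eif2s3y -0.35, Selplg -2.14, Mertk -1.99, Cbfa2t3 -1.80, Kif26a -1.67, Scrt1 -1.67, Tpbgl -1.64 and Galnt16 -1.09. With 2 arrays per group, no search for single outlying arrays could be made.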

How the results depend on the processing

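The 327 calls against ES cells became 213 with all probe sets of a gene averaged, 47 without an intensity trend (1764 at an unadjusted p under 0.05) and 51 with a 2-fold minimum, and ranged from 109 to 147 when an array was left out. The 170 higher calls became 108 with averaged probe sets and 34 without a trend, and ranged from 63 to 87 when an array was left out. The 157 lower calls became 97 under median centring and 13 without a trend, and ranged from 36 to 69 when an array was left out. The 420 calls against lines 2 and 3 became 228 with averaged probe sets, 0 without a trend in limma (2105 at an unadjusted p under 0.05), 198 against line 3 alone and 19 with a 2-fold minimum, and ranged from 67 to 301 when an array was left out. Without a trend no gene was called in the Wnt, LIF-STAT3, FGF-ERK, primitive endoderm, Dlk1-Dio3 or blood and endothelial lists. The causes were not tested. Other settings kept each count within 1.5 times. The deviations of same-numbered arrays from their group means correlated at -0.0137 to 0.0284 across genes. With 2 arrays per group, this cannot show whether a replicate number marks a shared culture or day, which no label states. With the replicate block 342 genes were called, of which 313 were among the 327.

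Of the 83 named genes called against ES cells, 19 kept the call in all their alternatives and Laptm5 reversed, to 0.37 without probe sets ending in _x_at or _s_at. Reversals of uncalled genes against ES cells were as follows. Sox2 was 0.016 with quantile normalization and 0.021 with median centring, and -0.067 to 0.041 when an array was left out. Eif2s3y was 0.027 with median centring, and -0.067 to 0.053 when an array was left out. Galnt16 was 0.036 with quantile normalization and 0.021 with median centring, and -0.21 to 0.19 when an array was left out. Zfy2 was -1.35 to 0.082 when an array was left out. Averaging probe sets gave Tfpi -0.0095, Id2 -0.10, Socs2 -0.031 and Msmo1 0.11, and leaving out _x_at and _s_at probe sets gave Ascl2 0.082 and Sox17 0.10. Against lines 2 and 3, Cbfa2t3 was 0.043 without _x_at and _s_at probe sets, and line 3 alone gave Nr0b1 -0.013, Bmp4 -0.45, Socs2 -0.031, Jun 0.70, Fos 0.30, Dnmt3l -0.50, Ndrg1 1.29, Bnip3 1.28 and Nupr1 0.39. Dim genes near the floor of 37.1 have the widest error.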

Other observations

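Some called genes lay outside the lists and were named after their values were seen. Khdc3 and Ooep, parts of the maternal complex of the oocyte cortex, fell by 0.80 and 0.43 in line 1. Khdc3 signals were 1642 and 1577 in ES cells and 952 and 889 in line 1 (log2 -0.80 ± 0.083, adjusted p = 2.36e-04). The drug transporter genes Abcb1a and Abcb1b fell by 0.55 and 0.57. Mpc1, a subunit of the mitochondrial pyruvate carrier, had signals of 1929 and 1871 in ES cells and 1001 and 1010.2 in line 1 (log2 -0.91 ± 0.076, adjusted p = 4.46e-05). Among genes that rose, Anxa2, a partner of membrane and actin, had signals of 607 and 615 in ES cells and 1189 and 948 in line 1 (log2 0.78 ± 0.15, adjusted p = 0.0174), and Cavin1, a coat protein of caveolae, rose by 1.21. The cell surface genes Cd24a and Prom1 rose by 0.70 and 0.91, and the X-linked genes Armcx2 and Armcx4 by 0.67 and 0.53.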
